A study of Homo sapiens with 4 samples.

Results

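The genes described here are 38 members of the endoplasmic reticulum (ER) folding system, chosen by name as chaperones, folding enzymes, factors of ER-associated degradation (ERAD), sensors of ER stress and subunits of the protein channel. All 38 were found among the 25122 genes of the table, and all 38 passed the filter on low values. RNA was measured by mRNA sequencing in Jurkat cells, an established line of human T-cell acute lymphoblastic leukaemia. The tested cells carried a short hairpin RNA against BDH1 (shBDH1, 2 libraries), and the others carried a control hairpin (shcontrol, 2 libraries). Both groups have the label WT for genotype, with no further treatment, allele or time point named. BDH1 is a mitochondrial dehydrogenase of ketone body metabolism. Cells with restored MYC, which the study's design mentions, were not analysed here. The labels do not say how many hairpin sequences or clones were used, or whether each library is a culture of its own. The p-values therefore rest on library-to-library spread alone, part or all of which may be technical.

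Proteins that enter the ER fold with the help of BiP, a chaperone of the Hsp70 family that binds exposed hydrophobic stretches in cycles of ATP hydrolysis set by J-domain partners and nucleotide exchange factors. Glycoproteins pass through calnexin and calreticulin, disulfide bonds are formed by protein disulfide isomerases, and proteins that fail to fold are drawn back into the cytosol and degraded by ERAD. When unfolded proteins build up, the sensors IRE1, ATF6 and PERK start the unfolded protein response, in which ATF6 and spliced XBP1 raise the transcription of chaperone and ERAD genes and PERK lowers translation and raises ATF4. Lymphoid cells use IRE1 and XBP1 when they make secreted and surface proteins.

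The libraries held 29453383 and 28777374 reads in genes for shBDH1 and 28681511 and 28797402 for shcontrol. BDH1 itself had 1221 and 1412 normalized reads in shBDH1, against 1725 and 1911 in shcontrol. Normalized reads are the deposited values, in which each library's counts had been scaled by its size factor. BDH1 was lower in both shBDH1 libraries and fell by 27.6% on average (log2 fold change -0.47, SE 0.078, limma adjusted p = 1.5e-05). Its RNA was thus lowered only in part, and BDH1 protein was not measured here. All 11 T-cell markers examined were at 1 CPM (reads scaled to equal library totals) or more in every library, and they summed to 2073 and 2091 CPM in shBDH1 and to 1683 and 1696 CPM in shcontrol. The 7 measured B-cell and plasma-cell markers summed to 112 and 120 CPM in shBDH1, against 114 and 116 CPM in shcontrol. Most of that sum was MZB1, and CD79A alone was at 20.7 and 20.8 CPM in shBDH1 and at 4.25 and 4.90 CPM in shcontrol. The 3 measured fibroblast and epithelial markers summed to 35.6 and 31.9 CPM in shBDH1, against 24.4 and 24.9 CPM in shcontrol, and the 5 myeloid markers to 3.06 and 2.71 CPM against 1.92 and 2.15 CPM. No measured marker of these lists was at 0 in all libraries, and their part in the results was not tested. In bulk RNA, fewer cells with a transcript and less of it per cell cannot be told apart.

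Most chaperone and folding genes rose in shBDH1, while the ERAD genes were mixed. Of the 19 chaperone and folding genes, 14 rose in shBDH1 and 3 fell, with a median log2 fold change of 0.43. Of the 11 ERAD genes, 3 rose and 5 fell, with a median of -0.08, but the ERAD genes that fell numbered only 3 with DESeq2, without shBDH1 replicate 2 or without shcontrol replicate 1, and 2 with no filter or an untrended prior, so no direction is read from them. The difference between the classes was not tested. Of the 6 genes for sensors and their direct partners, 2 rose and 1 fell, and neither of the 2 channel subunits passed the test. Over all 38 members, 19 rose and 9 fell at an adjusted p under 0.05 from limma, a test that shares information on the spread across all genes.

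The knockdown cells differed from the control cells in much of the transcriptome, and the members' counts are to be read against that. Of 19301 genes tested, 20.3% rose and 20.8% fell, 41.1% in all, with a median log2 fold change of -0.01. Well-expressed genes are called more often, and among genes with a mean of at least 200 normalized reads, as 37 of the 38 members had, 24.0% rose and 29.7% fell. The 73.7% of chaperone and folding genes that rose stood above these shares, while the 15.8% that fell stood below them. The 27.3% of ERAD genes that rose was near the background for well-expressed genes, and the 45.5% that fell stood above it. Under the alternatives just named fewer ERAD genes fell, but fewer of all genes fell too. Over all genes, 4020 fell in the main fit, 3205 with DESeq2 and 1246 with an untrended prior. With no filter, 3399 of 25083 genes fell. The share for well-expressed genes was not taken under these alternatives, so no direction is read from the ERAD falls. The shBDH1 and shcontrol libraries overlapped for 4 members. Without overlap, 23 members were higher and 11 lower in shBDH1, whereas over all genes 34.1% were higher and 34.9% lower without overlap, 69.0% in all. With edgeR on the whole reads recovered from the values, 19 members rose and 8 fell, against 20.6% and 20.3% of all genes. These shares are descriptions and no test of the group as a whole was made.

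**Figure D1:**
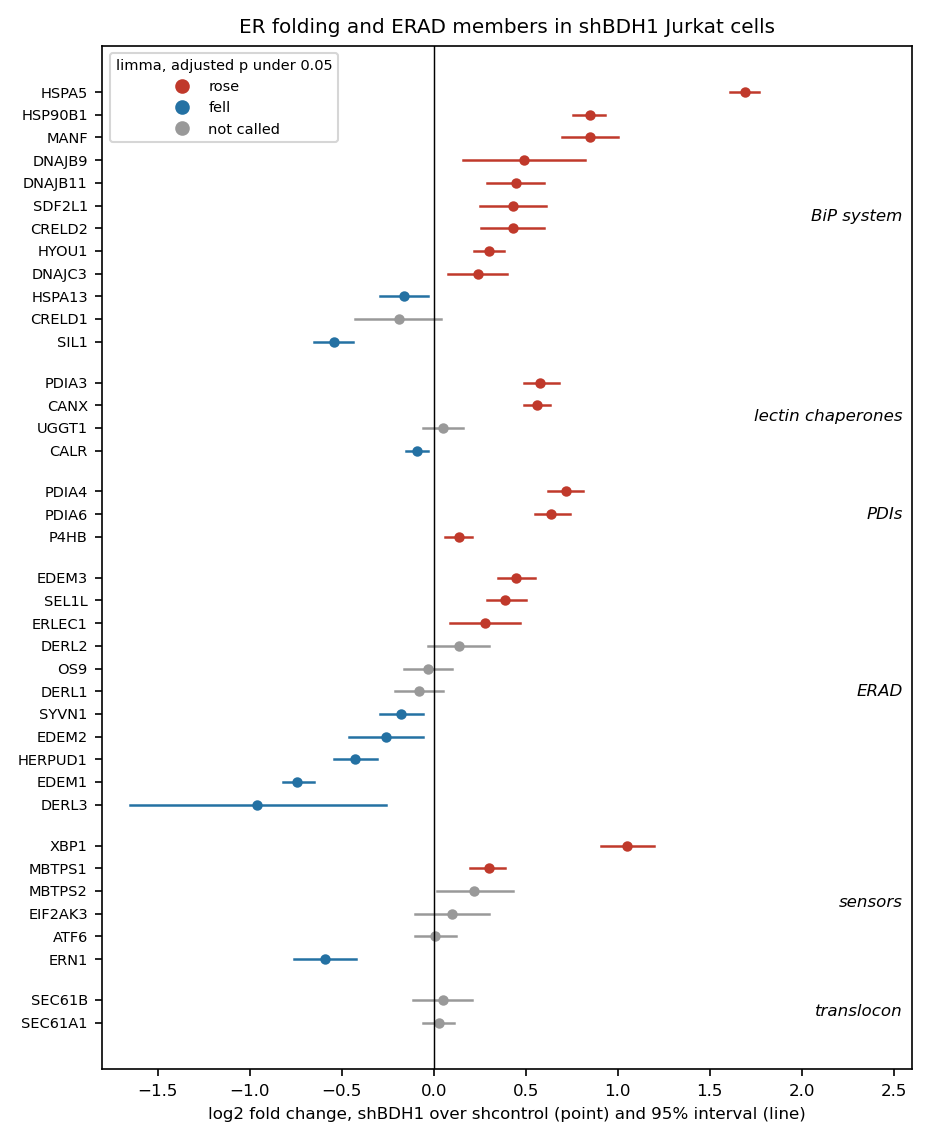
Log2 fold change of each of the 38 members in shBDH1 over shcontrol (points) with its 95% interval (lines), ordered by role. Most members of the BiP system and all 3 protein disulfide isomerases lie to the right of 0, and the ERAD genes spread to both sides, from -0.96 for DERL3 to 0.45 for EDEM3.

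HSPA5, which encodes BiP, had the largest rise among the members. It had 18528 and 18927 normalized reads in shBDH1, against 5889 and 5703 in shcontrol. Both shBDH1 libraries lay far above both shcontrol libraries, and the groups did not overlap. The means were 18728 ± 282 in shBDH1 and 5796 ± 131 in shcontrol (SD, n = 2 each), a 3.23-fold difference (log2 fold change 1.69, SE 0.038, limma adjusted p = 2.5e-23). Among the 7227 genes with a mean of at least 1000 normalized reads, HSPA5 ranked 6 by log2 fold change, and among all 19301 genes tested it ranked 459. HSPA5 (ENSG00000044574) lies on the reverse strand of chromosome 9 from 125234853 to 125241330 (GRCh38). HSP90B1, which encodes the ER Hsp90 paralogue GRP94, had 18137 and 18855 normalized reads in shBDH1, against 9804 and 10795 in shcontrol. Both shBDH1 libraries were again higher, by 1.80-fold (log2 fold change 0.85, SE 0.040, limma adjusted p = 4.3e-16). MANF, a small ER protein that binds BiP and can be secreted, had 2400 and 2088 normalized reads in shBDH1 and 1234 and 1255 in shcontrol. Its groups did not overlap although its shBDH1 libraries were less alike than those of HSPA5 (log2 fold change 0.85, SE 0.073, limma adjusted p = 1.5e-10).

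The J-domain proteins, which deliver substrates to BiP and start its ATP hydrolysis, had smaller fold changes than BiP. DNAJB11 (ERdj3) had 1479 and 1399 normalized reads in shBDH1, against 1073 and 1039 in shcontrol (log2 fold change 0.45, SE 0.078, limma adjusted p = 2.9e-05). SDF2L1, which forms a complex with DNAJB11, had 1127 and 1152 normalized reads in shBDH1, against 815 and 878 in shcontrol (log2 fold change 0.43, SE 0.086, limma adjusted p = 0.00016). Their shBDH1 libraries lay above their shcontrol libraries with no overlap. DNAJB9 (ERdj4), which also helps BiP hold IRE1 inactive, had 294 and 304 normalized reads in shBDH1, against 218 and 208 in shcontrol (log2 fold change 0.49, SE 0.16, limma adjusted p = 0.016). That call was lost without shBDH1 replicate 1 (adjusted p = 0.056), shBDH1 replicate 2 (0.085) or shcontrol replicate 2 (0.071), and its limma, edgeR or DESeq2 adjusted p ranged from 0.011 to 0.085 over 16 alternatives. DNAJC3 (P58IPK) had 1373 and 1365 normalized reads in shBDH1, against 1188 and 1128 in shcontrol (log2 fold change 0.24, SE 0.077, limma adjusted p = 0.012). Without shcontrol replicate 2 the limma adjusted p of DNAJC3 was 0.10, the highest of a range from 0.0060 over the alternatives.

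Genes for the nucleotide exchange factors of BiP, which release ADP so that substrate can leave, moved in opposite directions. HYOU1 (GRP170) had 11033 and 11189 normalized reads in shBDH1, against 8935 and 9096 in shcontrol, a rise of 23.2% (log2 fold change 0.30, SE 0.038, limma adjusted p = 2.1e-07). SIL1 had 2867 and 2967 normalized reads in shBDH1, against 4235 and 4273 in shcontrol, and fell by 31.4% in shBDH1 (log2 fold change -0.54, SE 0.052, limma adjusted p = 1.2e-09). For both genes the groups lay apart, with shBDH1 above shcontrol for HYOU1 and below it for SIL1. HSPA13, an ER protein with the ATPase part of an Hsp70 but no substrate-binding part, had 1955 and 1952 normalized reads in shBDH1, against 2139 and 2231 in shcontrol (log2 fold change -0.16, SE 0.063, limma adjusted p = 0.041). This call was the least stable of the members: it was lost under 10 of 16 alternatives, and the limma adjusted p was 0.087 without shBDH1 replicate 1, 0.090 without shBDH1 replicate 2, 0.072 without shcontrol replicate 1 and 0.25 without shcontrol replicate 2, in a range from 0.033 to 0.25.

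CRELD2, an ER protein with EGF-like repeats that is known as a target of ER stress, rose, while its paralogue CRELD1 did not pass the test. CRELD2 had 1317 and 1294 normalized reads in shBDH1, against 924 and 1015 in shcontrol (log2 fold change 0.43, SE 0.082, limma adjusted p = 8.8e-05). CRELD1 had 479 and 469 normalized reads in shBDH1, against 557 and 527 in shcontrol (log2 fold change -0.19, 95% interval -0.43 to 0.04, limma adjusted p = 0.19). In all, 9 of the 12 genes of BiP and its cofactors rose and 2 fell.

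**Figure D2:**
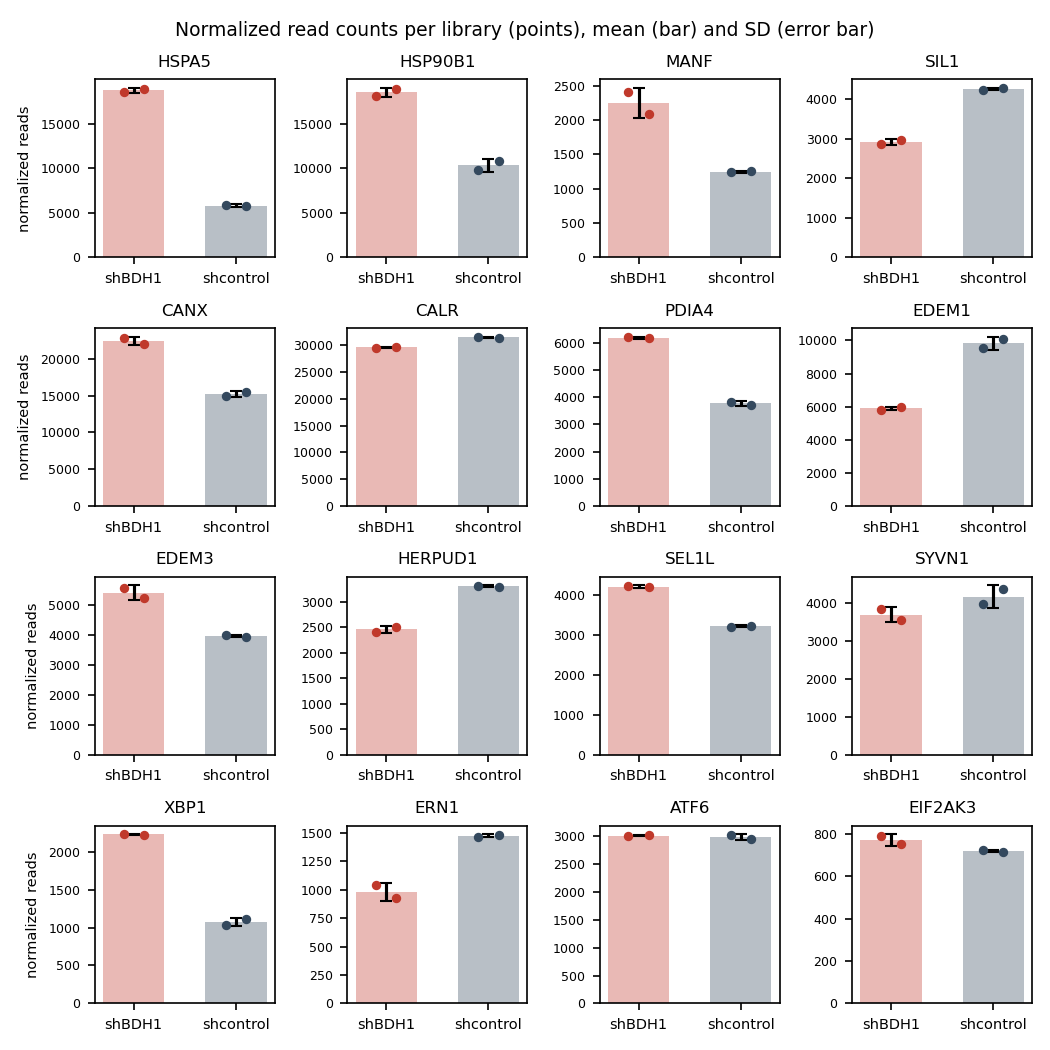
Normalized reads of 16 members in each library (points), with the mean (bars, axes from 0) and SD (error bars) of 2 libraries per group. HSPA5 was at 18528 and 18927 in shBDH1 and at 5889 and 5703 in shcontrol, whereas the libraries of ATF6 overlapped.

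Of the lectin chaperones, the membrane-bound calnexin rose and the soluble calreticulin did not. CANX had 22840 and 22032 normalized reads in shBDH1, against 14971 and 15556 in shcontrol, a 1.47-fold difference (log2 fold change 0.56, SE 0.034, limma adjusted p = 1e-13). CALR had 29467 and 29697 normalized reads in shBDH1, against 31535 and 31348 in shcontrol, and fell by 5.91% (log2 fold change -0.09, SE 0.029, limma adjusted p = 0.016). The shBDH1 libraries lay well above the shcontrol libraries for CANX and slightly below them for CALR. The call of CALR depended on the scaling. It was lost when libraries were scaled by their totals (limma adjusted p = 0.085) or by upper quartiles (0.076), and with an untrended prior (0.35). It was also lost without shcontrol replicate 1 (log2 fold change -0.084) or replicate 2 (-0.092). The adjusted p of CALR ranged from 0.0023 to 0.35 over the alternatives. PDIA3 (ERp57), the disulfide isomerase that works with calnexin and calreticulin, had 7701 and 8210 normalized reads in shBDH1, against 5258 and 5346 in shcontrol (log2 fold change 0.58, SE 0.045, limma adjusted p = 1.1e-11). UGGT1, the enzyme that returns unfolded glycoproteins to calnexin by adding glucose, had 3899 and 3544 normalized reads in shBDH1, against 3508 and 3684 in shcontrol, and its groups overlapped (log2 fold change 0.05, 95% interval -0.06 to 0.16, limma adjusted p = 0.52).

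All 3 of the other protein disulfide isomerases rose, by different amounts. PDIA4 (ERp72) had 6217 and 6169 normalized reads in shBDH1, against 3832 and 3709 in shcontrol, a 1.64-fold difference (log2 fold change 0.72, SE 0.047, limma adjusted p = 5.1e-13). PDIA6 (P5), which acts in a complex with BiP, had 6935 and 7076 normalized reads in shBDH1, against 4446 and 4521 in shcontrol, a 1.56-fold difference (log2 fold change 0.64, SE 0.045, limma adjusted p = 1.8e-12). P4HB, the founding disulfide isomerase and a subunit of prolyl hydroxylase, had 10296 and 10698 normalized reads in shBDH1, against 9467 and 9643 in shcontrol, only 9.86% more (log2 fold change 0.14, SE 0.039, limma adjusted p = 0.0057). The groups did not overlap for any of these genes, and the gap was narrowest for P4HB. Without shcontrol replicate 1 the limma adjusted p of P4HB was 0.098, within a range from 0.00085 to 0.22 over the alternatives.

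The genes of the mannosidase-like EDEM proteins, which trim the glycans of misfolded proteins and so mark them for ERAD, moved in opposite directions. EDEM1 had 5821 and 5975 normalized reads in shBDH1, against 9560 and 10113 in shcontrol, and fell by 40.0% in shBDH1 (log2 fold change -0.74, SE 0.043, limma adjusted p = 2.7e-14). EDEM3 had 5600 and 5265 normalized reads in shBDH1, against 4006 and 3957 in shcontrol, and was 36.4% higher in shBDH1 (log2 fold change 0.45, SE 0.049, limma adjusted p = 1.5e-08). Thus shBDH1 libraries were low for EDEM1 and high for EDEM3, each without overlap. EDEM2 had 669 and 719 normalized reads in shBDH1, against 856 and 808 in shcontrol (log2 fold change -0.26, SE 0.096, limma adjusted p = 0.030). The call of EDEM2 was lost with DESeq2 (adjusted p = 0.096), with no filter (limma adjusted p = 0.053) and with an untrended prior (0.11). It was also lost without shBDH1 replicate 1 (log2 fold change -0.21) or shcontrol replicate 1 (-0.22). OS9 and ERLEC1 are the lectins that read the trimmed glycans. ERLEC1 had 1022 and 933 normalized reads in shBDH1, against 839 and 772 in shcontrol (log2 fold change 0.28, SE 0.091, limma adjusted p = 0.015), a call lost without shBDH1 replicate 1 (0.15) or shcontrol replicate 2 (0.13), in a range from 0.0084 to 0.15. OS9 had 2787 and 2883 normalized reads in shBDH1, against 3108 and 2703 in shcontrol, and its groups overlapped (log2 fold change -0.03, 95% interval -0.16 to 0.10, limma adjusted p = 0.72).

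The subunits of the HRD1 complex, the main ubiquitin ligase of ERAD, did not move together either. SEL1L, the adaptor that holds the complex together, had 4234 and 4196 normalized reads in shBDH1, against 3196 and 3235 in shcontrol (log2 fold change 0.39, SE 0.051, limma adjusted p = 3.7e-07). SYVN1, which encodes the ligase HRD1, had 3833 and 3551 normalized reads in shBDH1, against 3965 and 4380 in shcontrol (log2 fold change -0.18, SE 0.056, limma adjusted p = 0.012). SEL1L was higher in both shBDH1 libraries by a wide gap, while SYVN1 was lower by a narrow one. The call of SYVN1 was lost with no filter (limma adjusted p = 0.065) and with an untrended prior (0.26). It was also lost without shBDH1 replicate 2 (log2 fold change -0.12) or shcontrol replicate 2 (-0.10). HERPUD1, a membrane protein that assembles the complex and a known target of ER stress, had 2411 and 2503 normalized reads in shBDH1, against 3313 and 3291 in shcontrol, and fell by 25.6% (log2 fold change -0.43, SE 0.056, limma adjusted p = 4e-07).

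The derlins are membrane proteins that help misfolded proteins leave the ER. DERL1 had 2029 and 2097 normalized reads in shBDH1, against 2257 and 2119 in shcontrol (log2 fold change -0.08, 95% interval -0.21 to 0.05, limma adjusted p = 0.31). DERL2 had 1208 and 1215 normalized reads in shBDH1, against 1133 and 1073 in shcontrol (log2 fold change 0.14, 95% interval -0.03 to 0.30, limma adjusted p = 0.18). Neither passed the test. DERL3 had only 48.2 and 39.2 normalized reads in shBDH1, against 102 and 71.5 in shcontrol, and was the least abundant member (log2 fold change -0.96, SE 0.34, limma adjusted p = 0.024). The call of DERL3 was lost with DESeq2 (adjusted p = 0.058), with no filter (limma adjusted p = 0.064) and with an untrended prior (0.081). It was also lost without shBDH1 replicate 2 (log2 fold change -0.81) or shcontrol replicate 1 (-0.71). SMARCB1, transcribed from the opposite strand, shares 77.0% of the exon bases of DERL3. SMARCB1 had 2978 and 2869 normalized reads in shBDH1, against 3334 and 3363.5 in shcontrol (log2 fold change -0.20, limma adjusted p = 0.0044). Whether its reads entered the values of DERL3 was not tested. Fewer members fell in every fit that left out 1 library, among the ERAD genes and among the chaperone and folding genes alike. Over all genes, too, fewer fell in those fits.

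Among the sensors, transcripts on the IRE1 branch changed in opposite directions and those for the other sensors did not pass the test. ERN1, which encodes IRE1, had 1038 and 924 normalized reads in shBDH1, against 1466 and 1483 in shcontrol, and fell by 33.5% (log2 fold change -0.59, SE 0.081, limma adjusted p = 7.4e-07). XBP1, whose mRNA IRE1 splices to give the active transcription factor, had 2230 and 2227 normalized reads in shBDH1, against 1036 and 1115 in shcontrol, a 2.07-fold difference (log2 fold change 1.05, SE 0.071, limma adjusted p = 9.4e-13). Both shBDH1 libraries were high for XBP1 and low for ERN1, without overlap. Reads summed over the gene do not separate spliced from unspliced XBP1 mRNA, so the splicing itself was not measured. XBP1 (ENSG00000100219) lies on the reverse strand of chromosome 22 from 28794555 to 28800597 (GRCh38).

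ATF6, the membrane-bound transcription factor that is cut in the Golgi under ER stress, had 2998 and 3013 normalized reads in shBDH1, against 3018 and 2949 in shcontrol (log2 fold change 0.01, 95% interval -0.10 to 0.12, limma adjusted p = 0.90). Its groups overlapped, and the interval leaves room for changes of up to 0.12 on the log2 scale. EIF2AK3, which encodes PERK, had 789 and 750 normalized reads in shBDH1, against 723 and 714 in shcontrol (log2 fold change 0.10, 95% interval -0.10 to 0.30, limma adjusted p = 0.44). MBTPS1, the site-1 protease that makes the first cut in ATF6 and also acts on SREBP proteins, had 5834 and 5837 normalized reads in shBDH1, against 4748 and 4763 in shcontrol, a rise of 22.7% (log2 fold change 0.30, SE 0.046, limma adjusted p = 5e-06). The libraries of each group were nearly equal for MBTPS1, with shBDH1 above shcontrol. MBTPS2, the site-2 protease that makes the next cut, had 740 and 755 normalized reads in shBDH1, against 633 and 648 in shcontrol (log2 fold change 0.22, 95% interval 0.02 to 0.43, limma adjusted p = 0.072). It passed when libraries were scaled by their totals (limma adjusted p = 0.046) or by upper quartiles (0.048), in a range up to 0.22.

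The channel through which new proteins enter the ER did not pass the test at either of the 2 subunits. SEC61A1, the pore, had 6993 and 6909 normalized reads in shBDH1, against 6958 and 6695 in shcontrol (log2 fold change 0.03, 95% interval -0.06 to 0.11, limma adjusted p = 0.66). SEC61B, a small subunit, had 1225 and 1191 normalized reads in shBDH1, against 1156 and 1177 in shcontrol (log2 fold change 0.05, 95% interval -0.11 to 0.21, limma adjusted p = 0.65).

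Levels of different genes were set side by side as RPKM, which are reads scaled to exon length and to the library's total. The members summed to 1587 and 1595 RPKM in shBDH1, against 1273 and 1285 RPKM in shcontrol. Chaperone and folding genes made up 1259 and 1270 RPKM of that sum in shBDH1, against 950.5 and 963 RPKM in shcontrol. ERAD genes made up 171 and 170.0 RPKM in shBDH1, against 188 and 187 RPKM in shcontrol, so their share of the members' sum was 10.8% and 10.7% in shBDH1 and 14.7% and 14.6% in shcontrol. The lower ERAD sum rested on EDEM1: in sums chosen after the data were seen, the other 10 ERAD genes had 141.5 and 139.4 RPKM in shBDH1, against 139.4 and 136.2 RPKM in shcontrol, which was not lower. The chaperone class stayed higher without HSPA5, at 1095 and 1103 RPKM in shBDH1, against 899 and 913 RPKM in shcontrol. The genes for sensors and their partners summed to 69.4 and 68.9 RPKM in shBDH1, against 51.9 and 52.6 RPKM in shcontrol.

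The order of the members by RPKM also differed between the groups. CALR had the highest level in both, at a mean of 377 RPKM in shBDH1 and 393 RPKM in shcontrol. HSPA5 was at 166 RPKM in shBDH1, rank 2 of 38, and at 50.4 RPKM in shcontrol, rank 5, where its libraries overlapped those of EDEM1 at 49.4 RPKM. It supplied 10.3% and 10.5% of the members' sum in the shBDH1 libraries and 4.0% and 3.9% in the shcontrol libraries. EDEM1 was at 30.2 RPKM in shBDH1, rank 14. DERL3 was last in both groups, at 0.397 RPKM in shBDH1 and 0.774 RPKM in shcontrol.

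**Figure D3:**
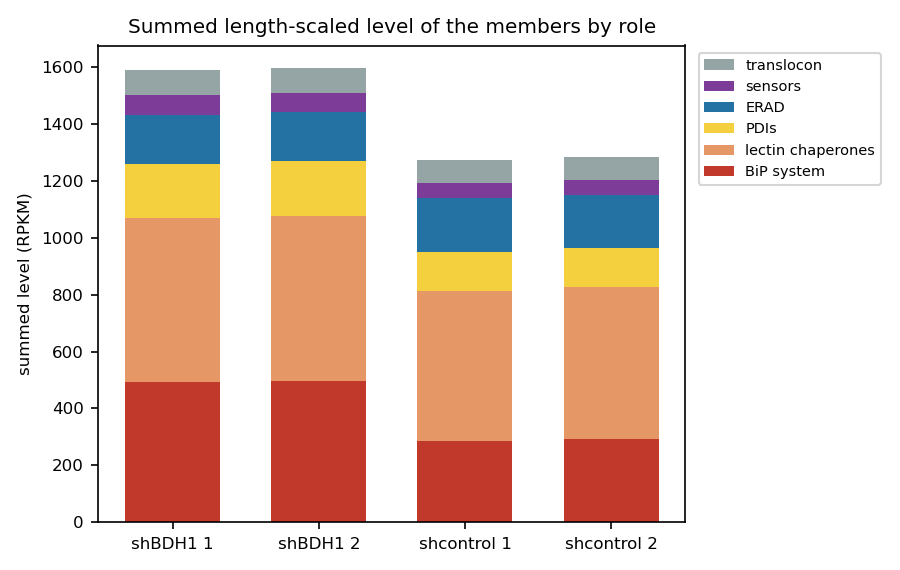
Summed level of the 38 members in each library, in RPKM, split by role. The whole bars reach 1587 and 1595 in shBDH1 and 1273 and 1285 in shcontrol, and the lowest segment, BiP and its cofactors, is the one that differs most.

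Pairs of members, either partners or genes of like function, were compared as ratios of normalized reads within a library, so that scaling between libraries cancels. The pairs were chosen after their values were seen, and the ratios are not per length, so a ratio is read only against the same ratio in the other group. HSPA5 to SIL1 was 6.46 and 6.38 in shBDH1, against 1.39 and 1.33 in shcontrol. HSPA5 to HYOU1 was 1.68 and 1.69 in shBDH1, against 0.659 and 0.627 in shcontrol. The transcript of the chaperone was therefore higher relative to those of both exchange factors, and more so for SIL1. CANX to CALR was 0.775 and 0.742 in shBDH1, against 0.475 and 0.496 in shcontrol. EDEM3 to EDEM1 was 0.962 and 0.881 in shBDH1, against 0.419 and 0.391 in shcontrol, and SEL1L to SYVN1 was 1.1 and 1.18 in shBDH1, against 0.806 and 0.738 in shcontrol. XBP1 to ERN1 was 2.15 and 2.41 in shBDH1, against 0.707 and 0.752 in shcontrol. None of these ratios overlapped between the groups, as the choice of pairs makes likely.

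**Figure D4:**
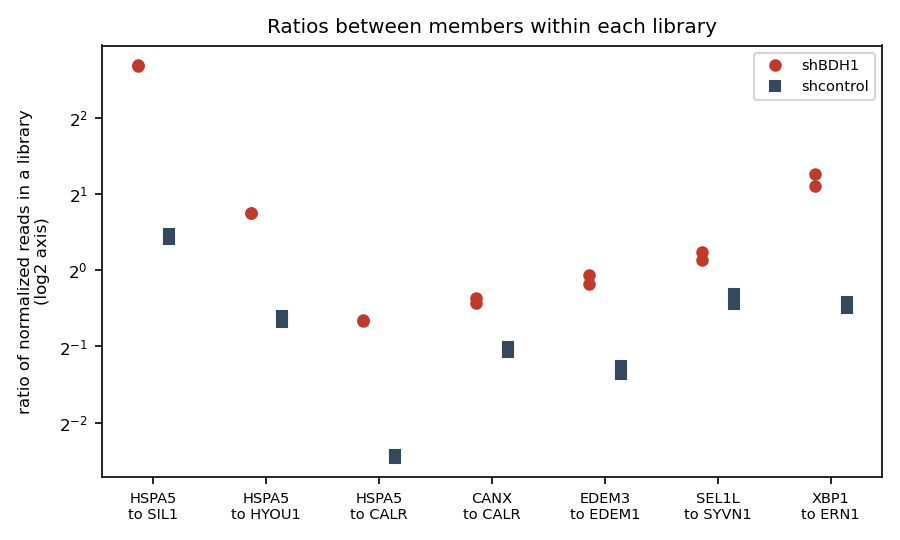
Ratios of normalized reads between pairs of members in each library, on a log2 axis, with circles for shBDH1 and squares for shcontrol. HSPA5 to SIL1 lies at 6.46 and 6.38 in shBDH1, against 1.39 and 1.33 in shcontrol, and the groups lie apart for every pair drawn.

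The promoters were read for the ER stress response elements, the sequences through which ATF6 and XBP1 are known to act with the CCAAT-binding factor NF-Y. RefSeq promoter windows (GRCh38.p14, 250 bases before an annotated start) were found for 35 of the 38 members, and not for PDIA3, DERL1 and DERL3. Among these, 6 members had several windows, with 4 for CANX and 2 for PDIA6. Over all genes there were 35116 windows, and a match in any window of a gene counted. The element ERSE was searched on both strands as CCAAT, any 9 bases and CCACG, and the element ERSE-II as ATTGG, any 1 base and CCACG. ERSE stood in 25 of 27305 genes with a window (0.0916%), of which 7 were members. ERSE-II stood in 18 genes (0.0659%), of which 3 were members. These are the matches in full, shown because they mark which of the members carry the elements, with the fixed letters in capitals and the spacer in lower case, and read 5′ to 3′ on the strand given:
HSPA5 ERSE, chr9:125241391-125241409, reverse strand: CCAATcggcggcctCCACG
HSP90B1 ERSE, chr12:103930216-103930234, forward strand: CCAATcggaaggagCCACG
HSP90B1 ERSE, chr12:103930321-103930339, reverse strand: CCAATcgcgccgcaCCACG
CRELD2 ERSE, chr22:49918554-49918572, reverse strand: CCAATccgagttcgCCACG
CANX ERSE, chr5:179698778-179698796, forward strand: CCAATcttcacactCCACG
PDIA6 ERSE, chr2:10812853-10812871, reverse strand: CCAATgagccgcagCCACG
XBP1 ERSE, chr22:28800603-28800621, reverse strand: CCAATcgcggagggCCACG
CALR ERSE, chr19:12938384-12938402, reverse strand: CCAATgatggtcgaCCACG
SDF2L1 ERSE-II, chr22:21642114-21642124, reverse strand: ATTGGtCCACG
HYOU1 ERSE-II, chr11:119057380-119057390, forward strand: ATTGGaCCACG
HYOU1 ERSE-II, chr11:119057274-119057284, forward strand: ATTGGaCCACG
HERPUD1 ERSE-II, chr16:56932025-56932035, forward strand: ATTGGgCCACG

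The HSPA5 window is given whole, because this gene changed most among the members. Its exact match to ERSE lies 66 to 48 bases before the annotated start (window chr9:125241344-125241593, reverse strand, exact match in capitals):
HSPA5 promoter: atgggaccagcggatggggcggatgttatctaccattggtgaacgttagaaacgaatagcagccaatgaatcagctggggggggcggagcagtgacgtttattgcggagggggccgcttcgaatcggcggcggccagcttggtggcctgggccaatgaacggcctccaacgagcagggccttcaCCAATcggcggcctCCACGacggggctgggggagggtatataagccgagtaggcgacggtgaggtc

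Set beside the RNA values, 10 members carried ERSE or ERSE-II, of which 8 rose and 2 fell, with a median log2 fold change of 0.50. The 2 that fell were CALR and HERPUD1. Of the 25 members whose windows held no exact match to either, 10 rose, 6 fell and 9 did not pass the test. Their median was 0.10, and they included PDIA4, MANF and EDEM1. Variants of the elements were not searched, so a window without a match may still hold one. Beyond the members, 20 tested genes had a window with ERSE or ERSE-II, of which 5 rose and 4 fell, with a median of 0.01. Among all tested genes with a window that are not members, 23.4% rose and 24.7% fell, and the members' counts above are to be read against these shares. An XBP1-binding core, TGACGTGG, stood in 0.78% of genes and among the members only in HYOU1, where it overlaps the distal ERSE-II. A core of the amino acid response element bound by ATF4, TGATGNAA, stood in 3.89% of genes and among the members only in HERPUD1. A match describes letters in these windows and does not show that a factor was bound.

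Other genes of the secretory and stress pathways, in 9 lists that hold no member and were chosen with earlier results known, were counted in the same way and are read against the same shares of all genes, of which 20.3% rose and 20.8% fell (24.0% and 29.7% at a mean of at least 200). Of 15 tested ER oxidoreductases, 6 rose and 1 fell. ERO1A, the oxidase that recharges disulfide isomerases, had 5863 and 5684 normalized reads in shBDH1, against 3846 and 3719 in shcontrol (log2 fold change 0.61, limma adjusted p = 2.2e-11). Its paralogue ERO1B (log2 fold change 0.66) and the sulfhydryl oxidase QSOX1 (0.59) also rose, while ERP29, a thioredoxin-like chaperone, fell (-0.71). Of 10 tested ER J proteins and prolyl isomerases, 1 rose and 2 fell. The 1 that rose was PPIB, or cyclophilin B (log2 fold change 0.69), against FKBP7 (-0.54) and DNAJC16 (-0.26), which fell, and SEC63 at -0.12 did not pass the test.

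Of 29 further ERAD genes, 8 rose (27.6%) and 5 fell (17.2%), shares that lie near or below those of all genes at a mean of at least 200. VCP, the ATPase that pulls ERAD substrates into the cytosol, had 3717 and 3912 normalized reads in shBDH1, against 5798 and 5745 in shcontrol (log2 fold change -0.60, SE 0.048, limma adjusted p = 3.7e-11). The ubiquitin ligase RNF185 fell (-0.39), and the ubiquitin-conjugating enzyme UBE2J1 (0.29) and the membrane protein UBAC2 (0.31) rose. Of 18 genes of N-glycan transfer and trimming, 6 rose and 6 fell. STT3B, a catalytic subunit of oligosaccharyltransferase, rose (0.48), as did the subunit RPN2 (0.26) and the cargo lectin LMAN1 (0.29), while the subunit DAD1 fell (-0.39). Of 16 translocon, signal peptidase and signal recognition particle receptor genes, 5 rose and 3 fell. The translocon-associated subunits SSR1 (0.37) and SSR2 (-1.48) went opposite ways, and TRAM2 (0.98) and the signal peptidase subunit SPCS3 (0.35) rose.

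In the list of the PERK arm and the genes from ATF4 to CHOP, 7 of 12 fell and 2 rose, with a median log2 fold change of -0.21. These are transcript levels, and the activity of PERK was not measured. ATF4, the transcription factor translated when PERK is active, had 12717 and 12969 normalized reads in shBDH1, against 16111 and 15135 in shcontrol (log2 fold change -0.28, SE 0.037, limma adjusted p = 3.7e-07). Its targets CHAC1 (-1.79), SESN2 (-1.42), ATF3 (-1.05) and TRIB3 (-0.95) fell. The 2 genes that rose, named after their values were seen, were DDIT4 (0.44), also a target of ATF4, and TNFRSF10B (0.26), a death receptor. DDIT3, which encodes CHOP, had 306 and 313 normalized reads in shBDH1, against 245 and 294 in shcontrol (log2 fold change 0.20, 95% interval -0.12 to 0.52, limma adjusted p = 0.32). Of 15 other regulators of the response, 4 rose and 5 fell. CREB3L2, a membrane-bound factor that is cut like ATF6, rose (0.90), as did YY1 (0.18), while the NF-Y subunits NFYB (-0.26) and NFYC (-0.35) fell.

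Of 16 genes of the COPII coat, which carries proteins out of the ER, 8 rose and 2 fell. SEC23A (0.56), the cargo receptor SURF4 (0.50) and SAR1A (0.29) rose, and SEC16A, which marks ER exit sites, fell (-1.17). Of 12 genes of ER-phagy and ER membrane shape, 2 rose and 4 fell, with ATL3 higher (0.55) and RTN3 (-1.01), RTN4 (-0.38) and RETREG3 (-0.39) lower. The medians of the 9 lists lay between -0.21 and 0.16, against 0.43 for the chaperone and folding members.

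**Figure D5:**
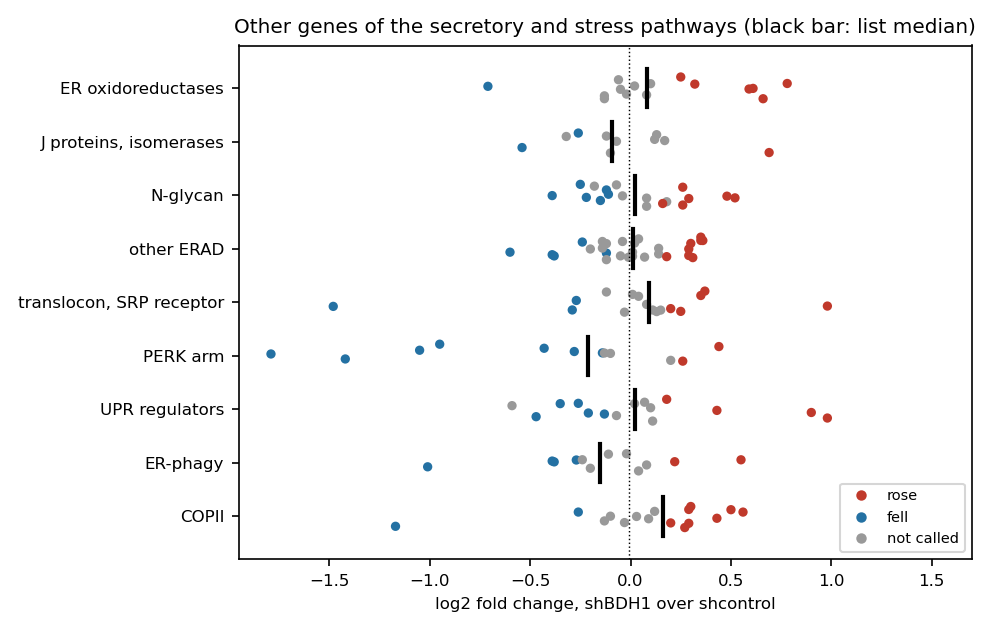
Log2 fold change of the tested genes of 9 lists from the secretory and stress pathways (points), with the median of each list (black bars). The PERK arm reaches from -1.79 for CHAC1 to 0.44, and COPII genes have the highest median at 0.16.

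Some members share exon bases with other genes, and the strand setting of the counting is not given in the sources used here, so reads of such pairs cannot be told apart. In all, 19 members overlap a gene of the table. C12orf73 shares 121 bases with HSP90B1 on the opposite strand and had 11893 and 12317 normalized reads in shBDH1, against 6617 and 7155 in shcontrol, a log2 fold change of 0.81 beside 0.85 for HSP90B1. Some other overlapping genes changed in the same direction as their members and by a like amount. AC026202.3 shares 653 bases with EDEM1 (log2 fold change -0.75 beside -0.74), AC068631.1 shares 496 bases with DNAJB11 (0.47 beside 0.45) and AP003392.3 shares 666 bases with HYOU1 (0.32 beside 0.30). ATP6V1C2 shares 1033 bases with PDIA6 (0.55 beside 0.64), and SYVN1 shares 398 bases with FAU (-0.17 beside -0.18) and 356 bases with MRPL49 (-0.23). AC145207.3 shares 529 bases with P4HB (0.16 beside 0.14). Others did not: CBY3 was at -0.66 beside 0.56 for CANX and ALG12 at -0.27 beside 0.43 for CRELD2. For PDIA3, at 0.58, the overlapping genes differed. AC018512.1 was at -0.10, while CATSPER2P1, which shares 176 bases with PDIA3, was at 0.47. No overlapping gene was found for HSPA5, XBP1, PDIA4, MANF or SEL1L.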

How the data were processed

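RNA of 2 shBDH1 and 2 shcontrol libraries of Jurkat cells was read as 150 bp paired ends, per the labels' protocols. The genome build hg38 and the tools HISAT2 2.2.1 and FastQC 0.11.9 come from the submitters' processing notes. How reads were counted, on which annotation and strand, and how they were scaled is not given in the sources used here. The deposited values are a signal per gene that the authors had normalized, each library's counts over its own size factor, although the table is named as raw counts. Dividing by the smallest step gave whole reads for 100.0% of values within 0.01 reads, with size factors of 1.0174 and 0.9944 for shBDH1 and 0.9739 and 0.9785 for shcontrol.

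Genes with a mean of at least 10 entered a limma fit on log2(value + 1) with an intensity-trended prior, 19301 in all. Fold changes on this scale understate the change of low genes. P-values were adjusted by Benjamini-Hochberg over all genes tested, with a threshold of 0.05. There were 2 residual and 25.8 prior degrees of freedom, and the median SE over all genes was 0.12. Levels per length used exon lengths of GENCODE 29. The chi-square per degree of freedom was 5.13 between the shBDH1 libraries and 3.72 between the shcontrol libraries, so neither pair is 1 library given under 2 names.

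The members and lists were chosen with earlier results of these data known. All 38 members are named. Of each list, up to 4 genes with the smallest p are named, plus DDIT3, ATF4, ERO1A and VCP, and BDH1 as the check of the hairpin. Of the genes that share bases with a member, those printed were picked after their values were seen. Promoter motifs were searched in RefSeq windows. Alternatives were other scalings, pseudocounts, filters and priors, edgeR, DESeq2 and limma-voom on the recovered reads, a block for the replicate number, and fits that leave out 1 library. Fits used DESeq2 1.42.0, edgeR 4.0.16 and limma 3.58.1 in R 4.3.3, and tables and plots pandas 2.3.3, numpy 2.4.6 and matplotlib 3.10.9 in Python 3.11.15.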

Additional observations from a re-analysis of the deposited data

How the results depend on the processing

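Of the 38 members, 20 kept their direction and their side of the threshold under all 16 alternatives, 15 of them called ones that include HSPA5, HSP90B1, XBP1, SIL1 and EDEM1. With an untrended prior, 1598 genes rose and 1246 fell, as did 12 and 4 members. Under that prior 9 chaperone and folding genes rose and 1 fell, 2 ERAD genes fell and 1 sensor gene rose. The calls of 12 members were lost. Those of CRELD2, HYOU1, MBTPS1 and SDF2L1 lay close to the threshold (limma adjusted p from 0.050 to 0.061). Those of DERL3 (0.081), DNAJC3 (0.096), EDEM2 (0.11), ERLEC1 (0.13), HSPA13 (0.17), P4HB (0.22), SYVN1 (0.26) and CALR (0.35) lay further from it. Without a filter 5 members fell, 2 of them ERAD genes, where 3399 of all 25083 genes tested fell. With DESeq2 3 ERAD genes fell, where 3205 of all 19301 genes did. Scaling by library totals left 1 chaperone and folding gene that fell, and so did upper quartiles, with 1. Over all genes, 3629 and 3669 fell under these scalings. With edgeR 19 members rose and 8 fell, where 20.6% of all genes rose and 20.3% fell. With 1 library left out, 16 to 18 members rose and 5 to 7 fell. In the same fits 1 to 2 chaperone and folding genes and 3 to 4 ERAD genes fell. Sign changes were seen only among uncalled members, with 1 library left out: log2 fold changes ranged from -0.021 (without shBDH1 replicate 1) to 0.117 for UGGT1, from -0.133 to 0.069 (without shcontrol replicate 1) for OS9, and, both lowest without shcontrol replicate 2, from -0.006 to 0.028 for ATF6 and from -0.001 to 0.054 for SEC61A1. The cause was not tested. The replicate numbers did not pair the libraries (correlation of deviations 0.04 at a mean of at least 100), and with the replicate block 19 members rose and 9 fell, with 4108 and 4217 over all genes. With 2 libraries per group the tests lean on the spread of other genes at like levels, as the fit without the trend shows.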
